A study of Mus musculus with 36 samples.

Results

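The genes described here encode heat shock proteins and their co-chaperones, and they were measured in macrophages grown from mouse bone marrow. They were chosen by name as the array's probes for 10 genes, Hspa1a, Hspa1b, Hsph1, Dnajb1, Hspa8, Hsp90aa1, Hspb1, Bag3, Hspd1 and Hspe1. The array held 19 such probes among 45281, and 9 of the 10 genes were among the 14415 tested. Transcript levels came from 36 arrays. The mice were C57BL/6, aged 2 to 5 months per the labels, and either lacked the liver X receptors LXRα and LXRβ (LXRa/LXRb dko) or were wild type (wt). Marrow cells of each genotype were cultured with M-CSF, the growth factor that drives them to become macrophages. Each genotype had 4 groups, which received cholesterol crystals for 3 h and then 10 mM cyclodextrin (CD) for 4 h, crystals alone, CD alone, or neither. CD is a ring of sugars that holds cholesterol in its cavity and takes it out of cells. Each dko group held 4 arrays, numbered 6 to 9 by the labels, and each wt group held 5, numbered 1 to 5. What these numbers refer to (mouse, dish or day) is not in the labels, so p-values measure only the spread between arrays, which may be technical. The question of the study was whether CD acts through LXR to change transcription. Levels below are normalized log2 intensities, changes are differences of log2 levels with the standard error (SE), and a gene was called changed at an adjusted p under 0.05 in limma's moderated test over all genes.

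Heat shock proteins keep other proteins folded. Hsp70 proteins bind exposed hydrophobic stretches of a client in a cycle driven by ATP, J proteins such as Dnajb1 deliver clients and start hydrolysis, and nucleotide exchange factors such as Hsph1 and Bag3 end it. Hsp90 takes over clients that are nearly folded, small heat shock proteins such as Hspb1 hold unfolded chains, and Hspd1 with its lid Hspe1 forms the folding chamber of mitochondria. When unfolded protein builds up, the transcription factor Hsf1 binds heat shock elements, which are inverted repeats of GAA, and switches on the inducible members, whereas Hspa8, the constitutive Hsp70, is abundant in unstressed cells.

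All 8 macrophage markers examined were detected on all 36 arrays, and their summed log2 level lay between 15.41 and 15.98. None of 5 T cell markers passed the filter on detection. Probes of the targeted genes did not check the genotype labels, since it is unknown here whether they lie in the deleted part. The main Nr1h3 probe (LXRα) read 9.59 to 10.91 in dko and 9.19 to 11.29 in wt, and the main Nr1h2 probe (LXRβ) read 8.89 to 9.97 in dko and 8.03 to 9.69 in wt. Replicates 1 to 3 of wt lay on 2 slides that held wt alone, whereas wt replicates 4 and 5 shared 4 slides with all dko arrays. The labels give no sex, yet the arrays were of 2 kinds. Xist, the RNA of the inactive X chromosome, was detected on 8 of 16 dko arrays (2 in each group), on 12 of 12 arrays of wt replicates 1 to 3 and on 0 of 8 arrays of wt replicates 4 and 5. The Y-linked gene Eif2s3y was detected on every array without an Xist signal and on no array with one. Of other Y-linked genes examined, Kdm5d was detected on 0, Uty on 5 and Ddx3y on 12 of 12 arrays of wt replicates 1 to 3. Each was detected on 8 of 8 arrays of wt replicates 4 and 5. Ddx3y read 5.92 to 7.75 on the former and 10.90 to 11.28 on the latter. In dko, arrays with the same number were of both kinds. For replicate 6, Xist read 10.59 untreated and 10.34 with CD, but 4.22 with crystals and 4.24 with crystals and CD. As labelled, a dko number therefore does not stand for a single mouse. In wt, slide set, replicate numbers and the Xist signal therefore coincide and cannot be told apart. In bulk RNA, fewer cells of a type and less RNA per cell cannot be told apart either.

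Of the 19 probes, 13 passed the filter of a detection p under 0.05 on at least 4 arrays. Hsph1 was found under its older name, HSP105, which the array's table uses. Hspb1 had 1 of 2 probes above the filter, Hsp90aa1 had 2 of 3, all 3 probes of Hspa8 and both of Hspd1 passed, and Hsph1, Dnajb1, Bag3 and Hspe1 had 1 probe each, which passed. Of the 3 Hspa1a probes, 1 was detected on 33 arrays and the others on 3 and 0. Both Hspa1b probes were detected on 0 of 36 arrays, so Hspa1b, the near-identical neighbour of Hspa1a, has no tested value here. Whether the detected Hspa1a probe also reads Hspa1b was not tested, so values given for Hspa1a are those of this probe. Where several probes passed, the brightest stands for the gene.

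Promoter sequences are shown because Hspa1a and Hspa1b can hardly be told apart by sequence and because Hspd1 and Hspe1 share 1 control region. They come from RefSeq, build GRCm38.p6, which held entries for 8 of the 10 genes, and the 250 bases upstream of each listed start were searched on both strands. The Hspa1a stretch is chr17:34972157-34972406 on the minus strand, and the Hspa1b stretch is chr17:34959239-34959488 on the minus strand. Capitals mark GAAGATTC, a heat shock element of 2 units, which begins at -104 from the start in each gene.
Hspa1a: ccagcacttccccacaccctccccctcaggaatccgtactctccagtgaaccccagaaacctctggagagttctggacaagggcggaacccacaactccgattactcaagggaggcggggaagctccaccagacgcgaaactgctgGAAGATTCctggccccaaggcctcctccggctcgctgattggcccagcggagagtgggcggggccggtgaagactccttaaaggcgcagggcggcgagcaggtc
Hspa1b: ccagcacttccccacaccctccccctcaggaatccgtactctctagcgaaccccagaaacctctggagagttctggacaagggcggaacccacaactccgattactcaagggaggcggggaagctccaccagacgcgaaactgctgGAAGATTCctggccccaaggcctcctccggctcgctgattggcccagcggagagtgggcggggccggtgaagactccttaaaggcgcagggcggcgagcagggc
These sequences were equal at 247 of 250 bases (98.8%). A 2-unit element, GAANNTTC or TTCNNGAA, occurred in 4218 of 32851 promoters of this length (12.8%), so its presence is common. A 3-unit element, GAANNTTCNNGAA or TTCNNGAANNTTC, which contains the 2-unit one, occurred in 153 of the 32851 (0.466%).

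Among the members with an entry, the 3-unit element was present upstream of Hspd1 and Hspe1, which lie head to head on chromosome 1. They share the same 30 bases, chr1:55088053-55088082, read on the minus strand for Hspd1 and on the plus strand for Hspe1. Capitals mark the run of 4 units over 18 bases, which begins at -144 from the second of the Hspd1 starts listed and at -89 from the Hspe1 start.
Hspd1: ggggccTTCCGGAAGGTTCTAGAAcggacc
Hspe1: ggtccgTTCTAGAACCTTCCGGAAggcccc
Hsph1 had 1 element of 2 units, at -33 and -54 from its listed starts, within chr5:149636351-149636380 on the minus strand, capitals again marking the element.
Hsph1: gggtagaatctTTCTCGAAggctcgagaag
Hspb1 had 2 elements of 2 units, at -117 and -97. Neither motif was found in the windows of Bag3 and Dnajb1. A match is a description of the letters and no evidence of binding.

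The first comparison asked what crystal loading alone did in wt cells. Hspa1a, the stress-inducible cytosolic Hsp70, rose by 2.74 on the log2 scale, 6.66-fold. The mitochondrial chaperonin Hspd1 rose 2.00-fold and the exchange factor Hsph1 rose 1.47-fold. These were 3 of the 9 tested members, and 0 of 9 fell, where 6.89% of all genes were called higher and 7.11% lower. The median change of the 9 members was 0.56, against -0.01 over all genes. Groups did not overlap for 4 of 9 members, against 12.3% of all genes.

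Hspa1a read 9.25, 7.62, 8.89, 5.89 and 5.36 in wt cells with crystals (replicates 1 to 5 in order), against 4.83, 4.69, 4.54, 4.69 and 4.58 in untreated wt cells. Every loaded array lay above every untreated one, but the loaded values fell into a high set of replicates 1 to 3 and a lower pair of replicates 4 and 5. The change was 2.74 (SE 0.44, 95% CI 1.84 to 3.63, limma adjusted p = 4.2e-05). Hspa1a was detected on 5 of 5 loaded arrays and on 3 of 5 untreated ones, so the untreated level lies near the detection limit. These values come from the only Hspa1a probe that passed the filter. The others, below it, averaged 4.72 and 4.22 in wt cells with crystals, against 4.41 and 4.24 in untreated wt cells.

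Hsph1, an Hsp110 protein that swaps ADP for ATP on Hsp70, read 9.95, 9.93, 10.02, 9.89 and 9.74 in wt cells with crystals, against 9.57, 9.25, 9.22, 9.41 and 9.28 in untreated wt cells. The groups did not overlap, and the loaded arrays were tightly grouped at 9.90 ± 0.11 (SD, n = 5). The change was 0.56 (SE 0.11, limma adjusted p = 0.000497). The other co-chaperones, Dnajb1 and Bag3, and the constitutive Hspa8 stayed below the threshold. Dnajb1, the J protein that is induced together with Hspa1a in heat-shocked cells, averaged 10.04 ± 0.15 with crystals and 10.09 ± 0.21 without (SD, n = 5 each), a difference of -0.05 (95% CI -0.31 to 0.20). Constitutive Hspa8 averaged 12.51 ± 0.32 with crystals and 12.74 ± 0.17 without, and the exchange factor Bag3, which also links Hsp70 to autophagy, averaged 10.94 ± 0.18 and 11.20 ± 0.19. Differences were -0.23 for Hspa8 (limma adjusted p = 0.251) and -0.26 for Bag3 (adjusted p = 0.17), and in each the groups overlapped.

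Among the mitochondrial pair, Hspd1 (Hsp60, the chamber) read 11.63, 11.30, 11.60, 11.04 and 11.26 in wt cells with crystals, against 10.46, 10.16, 10.25, 10.28 and 10.67 in untreated wt cells. All loaded arrays were above all untreated arrays, and the change was 1.0 (SE 0.15, limma adjusted p = 2.47e-05). The other Hspd1 probe gave 1.01 (limma adjusted p = 0.021 over probes). Hspe1 (Hsp10, the lid) read 9.59, 9.44, 8.96, 8.83 and 8.51 with crystals, against 8.81, 8.27, 8.40, 8.16 and 8.69 in untreated wt cells. Its groups overlapped, and its change of 0.60 (SE 0.22) missed the threshold at a limma adjusted p of 0.0618.

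Hsp90aa1, the inducible cytosolic Hsp90, read 9.21, 8.95, 9.11, 8.50 and 8.89 in wt cells with crystals, against 8.28, 7.91, 8.08, 7.86 and 8.45 in untreated wt cells. The groups did not overlap, yet the change of 0.82 (SE 0.31) was not called at a limma adjusted p of 0.0808, and the second probe gave 0.47 (adjusted p = 0.243). The small heat shock protein Hspb1, near the detection limit throughout, averaged 5.00 ± 0.14 with crystals and 5.30 ± 0.27 without (SD, n = 5 each), a difference of -0.30 (adjusted p = 0.469). Of the 8 macrophage markers, 2 fell in the same comparison, Cd14 by 1.14 and Itgam by 0.87 (limma adjusted p = 0.00469 and 0.00492), and 0 rose. The other 6 were not called and had values between -1.24 (Fcgr1, limma adjusted p = 0.0623) and 0.74 (Mertk, adjusted p = 0.105). Kit, from the list of erythroid and mast cell markers, rose by 3.88. The summed level of that list, in which 2 of 5 genes were tested and Gata1 and Cpa3 did not pass the filter, was 7.59 to 9.28 with crystals and 5.29 to 5.62 without. The summed osteoclast list, with 2 of 3 genes tested and Calcr below the filter, was 8.31 to 9.97 with crystals and 6.86 to 9.32 without, and Ctsk in it had a value of 1.25 (limma adjusted p = 0.102). The part of these changes in the result was not tested.

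**Figure D1:**
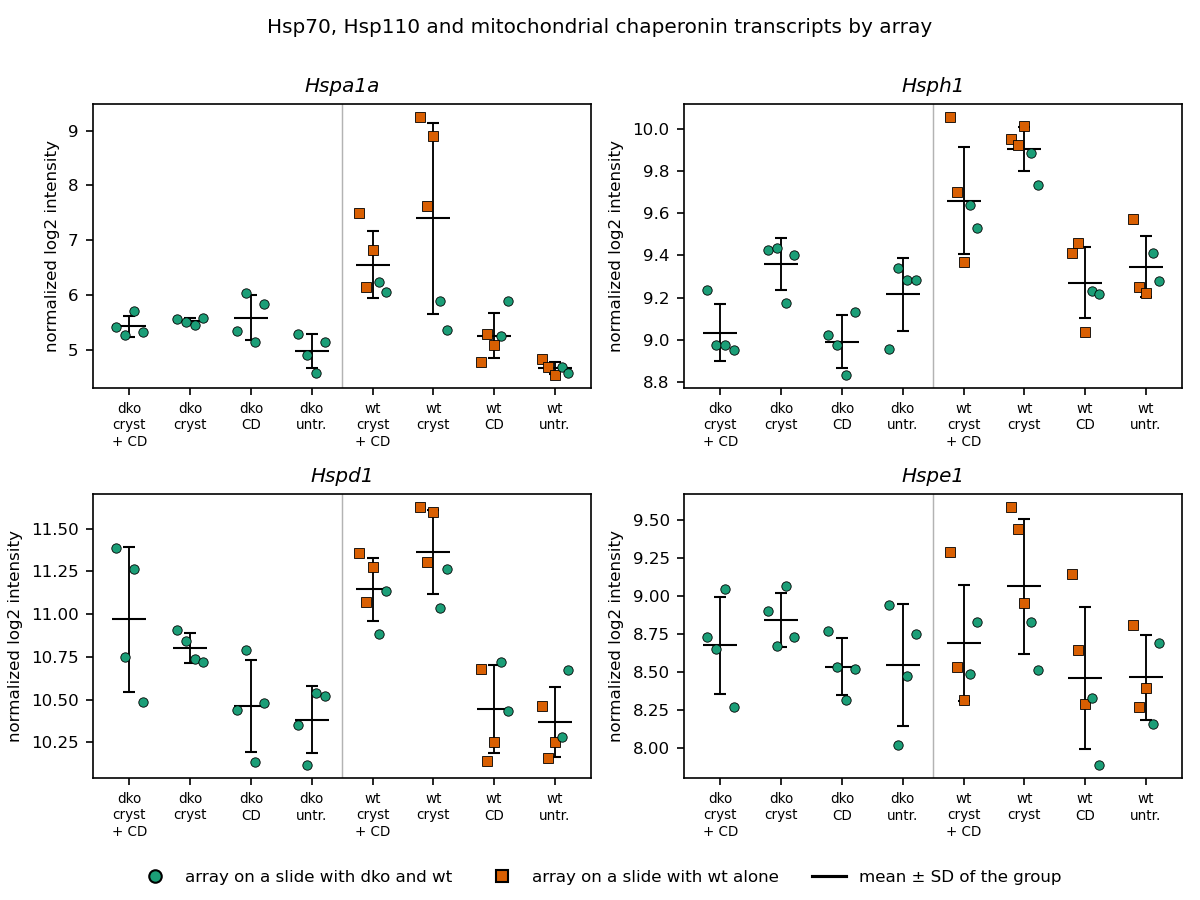
Normalized log2 intensity of Hspa1a, Hsph1, Hspd1 and Hspe1 on each array in the 8 groups, dko left of wt, with bars for the mean ± SD. Circles are arrays on slides with both genotypes and squares are arrays on slides with wt alone, and the 3 high Hspa1a values with crystals, 7.62 to 9.25, are all squares.

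The size of the Hspa1a change differed within wt. On replicates 1 to 3, with Xist, crystals raised Hspa1a by 3.90 (SE 0.31, limma adjusted p = 4.84e-10). On replicates 4 and 5, without Xist, the change was 0.99 (SE 0.38) and was not called (adjusted p = 0.43). The difference between these sets, 2.91 (SE 0.49, limma adjusted p = 0.00709), was called for 7 of 14415 genes (0.0486%), and this split was chosen after seeing the data. It was also called with median scaling (3.29, adjusted p = 0.0122) and on the deposited log2 values (2.21, adjusted p = 0.0416). For the other 8 members the difference was not called, the smallest limma adjusted p being 0.997. Hspd1 changed by 1.22 on replicates 1 to 3 and had a value of 0.67 on replicates 4 and 5, and for Hsph1 these values were 0.62 and 0.46. Within single slides, the Hspa1a difference was 3.43 and 4.63 on the wt-only slides and 1.31 on the 1 shared slide that held both wt groups. With slide as a fixed block it was 2.71 (SE 0.43, limma adjusted p = 6.23e-05). The summed level of 5 stromal cell markers also differed between these sets, 9.16 to 10.06 on replicates 1 to 3 and 10.31 to 11.23 on replicates 4 and 5. Its part in the Hspa1a result was not tested.

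In dko cells, none of the 9 members was called after crystals, where 0.236% of all genes were called higher and 0.18% lower. The smallest limma adjusted p was 0.464, and 2 members had an unadjusted p under 0.05, as had 8.1% of all genes. Groups did not overlap for 2 of 9 members (Hspa1a and Hspd1), against 7.83% of all genes. Hspa1a read 5.56, 5.51, 5.44 and 5.58 in dko cells with crystals (replicates 6 to 9 in order), against 5.28, 4.90, 4.58 and 5.14 in untreated dko cells. The groups did not overlap, all loaded values were close together, and the change was 0.55 (SE 0.49, 95% CI -0.45 to 1.55). This SE rests on a spread shared by all 8 groups, among them wt with crystals (SD 1.74). The dko groups compared had SDs of 0.06 with crystals and 0.31 untreated, so the width of the interval is not that of the dko arrays alone. The loaded arrays with Xist read 5.44 and 5.58, and those without read 5.56 and 5.51, so the Xist signal did not separate them.

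Hsph1 read 9.42, 9.44, 9.17 and 9.40 in dko cells with crystals, against 8.96, 9.34, 9.28 and 9.28 in untreated dko cells. These groups overlapped, and the difference was 0.14 (95% CI -0.10 to 0.39). Hspd1 read 10.90, 10.85, 10.74 and 10.72 with crystals, against 10.35, 10.12, 10.54 and 10.52 in untreated dko cells. Here too no loaded array fell below an untreated one, and the difference was 0.42 (SE 0.17, 95% CI 0.07 to 0.77, limma adjusted p = 0.464). Hsp90aa1 read 8.34, 8.65, 7.61 and 7.38 with crystals, against 7.25, 7.92, 8.12 and 6.69 in untreated dko cells, and these groups overlapped widely. Hspe1 averaged 8.84 ± 0.18 with crystals and 8.55 ± 0.40 without (SD, n = 4 each). The low-level Hspb1 gave the largest negative value, -0.60 (95% CI -1.12 to -0.09, limma adjusted p = 0.469).

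Whether crystals acted differently in dko and wt cells was tested directly as an interaction. It was called for none of the 9 members, where 0% of all genes were called higher and 0.0416% lower. For Hspa1a the crystal effect in dko minus that in wt was -2.18 (SE 0.66, 95% CI -3.53 to -0.84, limma adjusted p = 0.522). For Hspd1 it was -0.58 (95% CI -1.05 to -0.11) and for Hsph1 -0.41 (95% CI -0.75 to -0.08), and these 3 members had an unadjusted p under 0.05, as had 4.65% of all genes. The absence of a call in dko is therefore not shown to differ from the calls in wt.

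**Figure D2:**
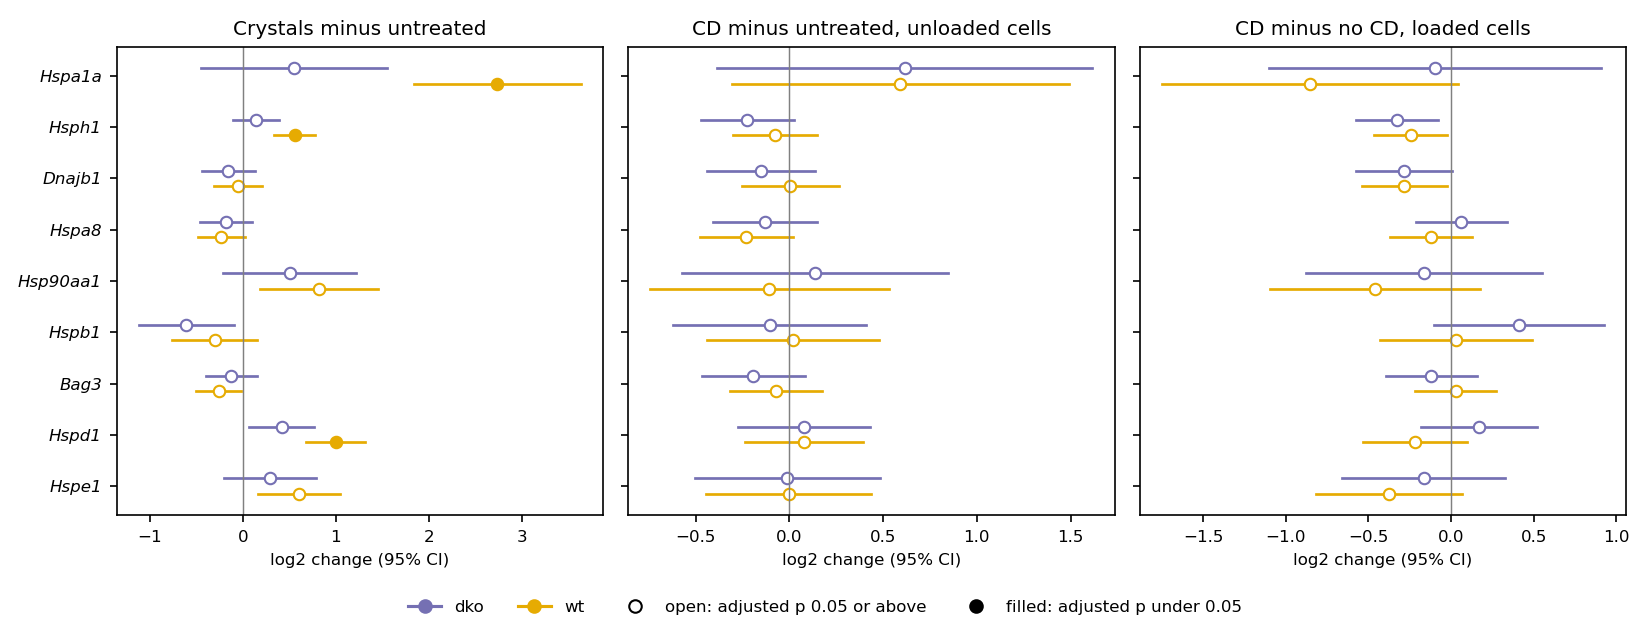
Log2 changes of the 9 tested members with 95% confidence intervals, dko above wt. The comparisons are crystals against untreated, CD against untreated in unloaded cells, and CD against no CD in loaded cells. Points are filled where limma's adjusted p was under 0.05. Filled points for crystals alone are the wt values of Hspa1a (2.74), Hsph1 (0.56) and Hspd1 (1.0).

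The genotypes were next compared directly within each treatment, as dko minus wt. After crystals, Hsph1 was lower in dko, at 9.36 ± 0.13 (SD, n = 4) against 9.90 ± 0.11 in wt (n = 5). The groups did not overlap, and the difference was -0.54 (SE 0.12, limma adjusted p = 0.0234). Hsph1 was the 1 member of 9 called, where 0.229% of all genes were called lower. With slide as a fixed block the difference was -0.48 and was no longer called (limma adjusted p = 0.0839), and on the 1 slide that held both groups it was -0.59. It was not called either without wt replicate 2 or 3 (-0.54 and -0.52, limma adjusted p = 0.0745 and 0.0674) or without dko replicate 7, 8 or 9 (-0.57, -0.48 and -0.56, adjusted p = 0.079, 0.161 and 0.0694). Hspa1a averaged 5.52 ± 0.06 in dko and 7.40 ± 1.74 in wt, and its difference of -1.88 (SE 0.47) missed the threshold at a limma adjusted p of 0.0596. That value turned on the wt arrays used, since the difference was -3.06 (SE 0.29) against wt replicates 1 to 3 and -0.10 (SE 0.33) against wt replicates 4 and 5. Leaving out wt replicate 4 or 5 made the call, at -2.25 (limma adjusted p = 0.016) and -2.39 (adjusted p = 0.0033). Groups did not overlap for 2 of 9 members, against 5.71% of all genes. Hspd1, the other of these, differed by -0.56 (limma adjusted p = 0.111), and Hsp90aa1 by -0.93 (adjusted p = 0.192).

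After crystals followed by CD, Hsph1 was again lower in dko. It read 9.24, 8.97, 8.98 and 8.95 in dko, against 10.06, 9.70, 9.37, 9.64 and 9.53 in wt. The groups did not overlap, and the difference was -0.63 (SE 0.12, limma adjusted p = 0.00387), in a comparison where 0.243% of all genes were called lower. With slide as a fixed block it was -0.52 (limma adjusted p = 0.0657), and on the 2 slides with both groups it was -0.56 and -0.69. Hspa1a did not overlap either, at 5.41, 5.28, 5.70 and 5.32 in dko against 7.50, 6.14, 6.81, 6.24 and 6.05 in wt, yet its difference of -1.12 was not called (adjusted p = 0.343). These were the 2 of 9 members without overlap, against 2.71% of all genes. In untreated cells none of the 9 members was called, where 0.111% of genes were higher and 0.0971% lower in dko, and the smallest limma adjusted p was 0.4. An unadjusted p under 0.05 was reached by 1 member there and by 12.3% of all genes. After CD alone none was called either, where 0.187% of genes were higher and 0.18% lower, and the smallest adjusted p was 0.31, with 1 member and 12.1% of all genes at an unadjusted p under 0.05. Untreated Hsph1 differed by -0.13 (95% CI -0.37 to 0.10) and untreated Hspa1a by 0.31 (95% CI -0.64 to 1.26). Summed levels of markers of other cells also had different ranges in the genotypes. The neutrophil list, with 3 of 6 genes tested, was 7.04 to 9.66 in dko and 6.39 to 7.27 in wt, and the stromal list was 10.99 to 11.83 in dko and 9.16 to 11.23 in wt. The osteoclast list was 8.58 to 10.46 in dko and 6.69 to 9.97 in wt. No gene of these 3 lists was called between genotypes. Kit was called lower in dko after crystals (-1.24, limma adjusted p = 0.0234) and after crystals with CD (-1.11, adjusted p = 0.0494), and the macrophage marker Mertk after crystals with CD (-1.38, adjusted p = 0.0345). Their part in the Hsph1 differences was not tested.

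CD on its own left the members below the threshold. In dko cells none of 9 was called, where 1.13% of genes were called higher and 0.583% lower, and 0 had an unadjusted p under 0.05, against 12.7% of all genes. In wt cells none of 9 was called, where 0.645% of genes were called higher and 0.25% lower, and again 0 had an unadjusted p under 0.05, against 8.82% of all genes. Changes ran between -0.22 and 0.61 in dko and between -0.23 and 0.59 in wt. Hspa1a gave the upper end of each range, reading 5.34, 6.03, 5.14 and 5.84 in dko cells with CD and 4.78, 5.29, 5.09, 5.25 and 5.89 in wt cells with CD. These values overlapped with the untreated ones, and the 95% CI was -0.39 to 1.62 in dko and -0.30 to 1.49 in wt. In wt the lowest array with CD read 4.78 and the highest untreated one 4.83. These intervals and p-values also rest on the shared spread, which includes Hspa1a in wt with crystals (SD 1.74). The SDs with CD and untreated were 0.42 and 0.31 in dko, and 0.41 and 0.11 in wt. For Hspd1 the CD change was 0.08 in each genotype, with a 95% CI of -0.27 to 0.43 in dko and -0.24 to 0.39 in wt.

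In cells already loaded with crystals, CD also produced no member call. In dko the changes ran between -0.33 (Hsph1, limma adjusted p = 0.199) and 0.41 (Hspb1), where 1.27% of genes were called higher and 0.534% lower, and 1 member had an unadjusted p under 0.05, as had 12.1% of all genes. In wt they ran between -0.85 (Hspa1a, limma adjusted p = 0.721) and 0.03, in a comparison in which 0% of genes were called in either direction although 1042 (7.23%) had an unadjusted p under 0.05, 2 of the members among them. Hspa1a with CD in loaded wt cells again divided by replicate set. On replicates 1 to 3 it was lower with CD, with a change of -1.77 (SE 0.31, limma adjusted p = 0.026), and on replicates 4 and 5 the change was 0.52 (SE 0.38, adjusted p = 0.794). The difference between the sets, -2.29, was not called (limma adjusted p = 0.235), where 0.0139% of all genes were.

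Whether the CD effect differed by genotype or by loading was tested as well. None of the 9 members was called in the genotype comparison of the CD effect, where 0% of all genes were called in unloaded and in loaded cells. By loading, none was called in dko, where 0% of all genes were called, or in wt, where 0.00694% were called higher and 0.0416% lower. By loading in wt, 1 member had an unadjusted p under 0.05, Hspa1a at -1.44 (95% CI -2.71 to -0.18), as had 2.47% of all genes. In the other 3 tests 0 members had one, against 1.84% of all genes by loading in dko, and 1.72% and 2.19% by genotype in unloaded and in loaded cells.

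Set against untreated cells, crystals followed by CD changed 4 of 9 members in wt and 2 of 9 in dko. In dko cells Hspd1 rose and Dnajb1 fell, where 4.07% of genes were called higher and 4.02% lower. In wt cells Hspa1a, Hspd1 and Hsph1 rose and Hspa8 fell, where 7.49% were called higher and 8.73% lower. These comparisons use the same untreated arrays as those for crystals alone.

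In dko, Hspd1 read 11.38, 10.75, 11.26 and 10.49 with crystals and CD, against 10.35, 10.12, 10.54 and 10.52 untreated, a change of 0.59 (SE 0.17, limma adjusted p = 0.0297). The groups overlapped by 1 array, and the treated arrays formed a high pair without Xist (11.38 and 11.26) and a low pair with Xist (10.75 and 10.49). The other Hspd1 probe gave 0.66 and was not called (limma adjusted p = 0.287 over probes). Dnajb1 read 9.47, 9.82, 9.45 and 9.90 with crystals and CD, against 10.20, 10.04, 9.92 and 10.24 untreated. No treated array reached an untreated one, and the change was -0.44 (SE 0.14, limma adjusted p = 0.0486). Dnajb1 was the 1 member of 9 whose groups did not overlap, against 13.2% of all genes. Neither gene was called without dko replicate 6, 7 or 8, where Hspd1 had 0.44, 0.58 and 0.54 (limma adjusted p = 0.263, 0.0755 and 0.161) and Dnajb1 had -0.34, -0.51 and -0.43 (adjusted p = 0.304, 0.0692 and 0.195). Dnajb1 also lost its call without dko replicate 9 (-0.48, adjusted p = 0.0652) and without wt replicate 2, 3 or 4 (adjusted p = 0.0569, 0.0559 and 0.0631), which enter through the shared estimate of the spread.

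In wt, Hspa1a read 7.50, 6.14, 6.81, 6.24 and 6.05 with crystals and CD, all above the untreated arrays, and changed by 1.88 (SE 0.44, 3.69-fold, limma adjusted p = 0.00266). Hspd1 read 11.35, 11.07, 11.28, 10.89 and 11.14, also with no overlap, and changed by 0.78 (SE 0.15, limma adjusted p = 0.000513). The 2 called values near the threshold were a rise of Hsph1 by 0.31 (adjusted p = 0.0458), with overlapping groups, and a fall of Hspa8 by 0.35 (adjusted p = 0.045). Hspa8 read 12.33, 12.42, 12.53, 12.22 and 12.46 with crystals and CD, against 12.89, 12.83, 12.86, 12.57 and 12.55 untreated, with no overlap on this probe, but its other probes gave -0.22 and -0.02 and were not called. Groups did not overlap for 3 of 9 members, against 12.4% of all genes. Hsph1 was not called without wt replicate 1, 2, 4 or 5 (0.27, 0.28, 0.33 and 0.33, limma adjusted p = 0.108, 0.167, 0.0902 and 0.0875) or without dko replicate 7, 8 or 9 (adjusted p = 0.0636, 0.0534 and 0.0571). Hspa8 was not called without wt replicate 1, 2, 3 or 4 (-0.30, -0.33, -0.35 and -0.35, limma adjusted p = 0.191, 0.138, 0.0722 and 0.0762) or without dko replicate 7 or 8 (adjusted p = 0.0533 and 0.0627). Dnajb1 differed by -0.34 in wt (limma adjusted p = 0.068).

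**Figure D3:**
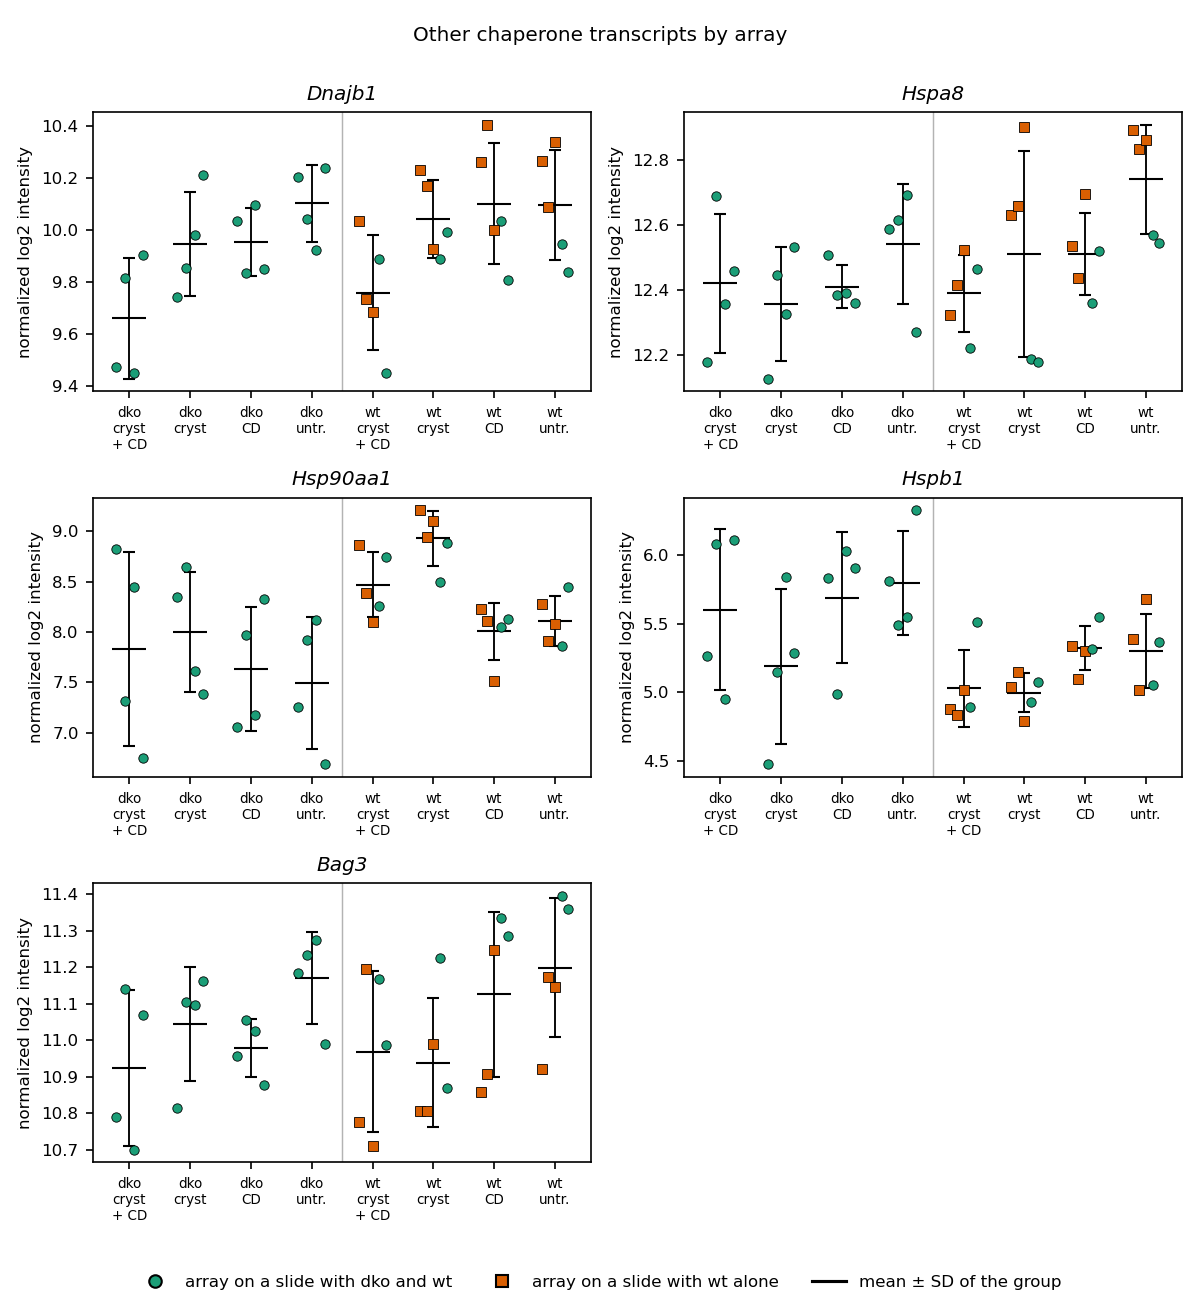
Normalized log2 intensity of Dnajb1, Hspa8, Hsp90aa1, Hspb1 and Bag3 on each array in the 8 groups, dko left of wt, with bars for the mean ± SD. Dnajb1 in dko cells with crystals and CD (9.45 to 9.90) lies below untreated dko cells (9.92 to 10.24), and Hspa8 stays between 12.13 and 12.90 throughout.

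Over all 8 groups, mean Hspa1a levels ran in the order wt with crystals (7.40 ± 1.74), wt with crystals and CD (6.55 ± 0.61), dko with CD (5.59 ± 0.42), dko with crystals (5.52 ± 0.06), dko with crystals and CD (5.43 ± 0.19), wt with CD (5.26 ± 0.41), untreated dko (4.97 ± 0.31) and untreated wt (4.67 ± 0.11), as mean ± SD. Each neighbouring pair overlapped except wt with crystals and CD against dko with CD. Hspd1 means were ordered wt with crystals (11.37 ± 0.25), wt with crystals and CD (11.15 ± 0.18), dko with crystals and CD (10.97 ± 0.42), dko with crystals (10.80 ± 0.09), then the 4 groups without crystals between 10.37 and 10.46. Hsph1 was highest in wt with crystals (9.90 ± 0.11) and wt with crystals and CD (9.66 ± 0.26), and the other 6 groups had means between 8.99 and 9.36.

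**Figure D4:**
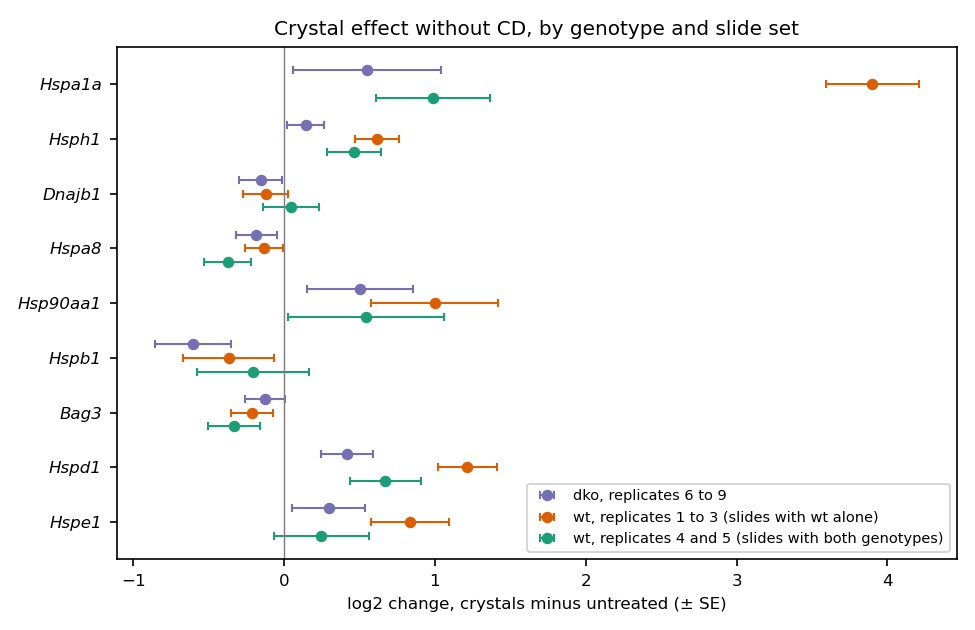
Log2 change of each tested member with crystals alone (± SE) in dko cells, in wt replicates 1 to 3 and in wt replicates 4 and 5. Hspa1a stands at 3.90 in wt replicates 1 to 3, against 0.99 in wt replicates 4 and 5 and 0.55 in dko.

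In dko, where arrays with and without an Xist signal were balanced at 2 and 2 in every group, 3 members differed between these arrays in a split chosen after seeing the data. Hsp90aa1 read 6.69 to 7.61 on the 8 arrays with Xist and 7.92 to 8.82 on the 8 without. The ranges did not overlap, and the difference was -1.17 (SE 0.14, limma adjusted p = 3.35e-08). On the second Hsp90aa1 probe the ranges were 4.62 to 5.36 with Xist and 4.77 to 5.71 without. Hspb1 was higher with Xist, at 5.29 to 6.32 against 4.48 to 5.91, a difference of 0.69 (SE 0.13, limma adjusted p = 8.26e-05). Dnajb1 was higher with Xist as well, at 9.82 to 10.24 against 9.45 to 10.04, a difference of 0.29 (SE 0.07, limma adjusted p = 0.00234). The split moved much of the transcriptome, since 21% of all genes were called higher and 15.1% lower with Xist. The summed stromal list was 11.59 to 11.83 with Xist and 10.99 to 11.35 without, and its part was not tested. In wt, Hsp90aa1 averaged 8.09, 9.09, 7.95 and 8.45 on replicates 1 to 3, with Xist (untreated, crystals, CD, crystals with CD). On replicates 4 and 5, without Xist, these means were 8.15, 8.70, 8.09 and 8.51. For Hspb1 they were 5.36, 4.99, 5.25 and 4.91 with Xist, against 5.21, 5.00, 5.43 and 5.20. For Dnajb1 they were 10.23, 10.11, 10.22 and 9.82, against 9.89, 9.94, 9.92 and 9.67.

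The Xist signal was then added to the model, again chosen after seeing the data. Direct comparisons of the genotypes used a term shared by both, and the other comparisons used a separate term for each genotype. With Xist in the model, 5 of 9 members were called for crystals in wt, where 9.84% of genes were called higher and 11.3% lower. Hsp90aa1 (limma adjusted p = 0.000583) and Hspe1 (adjusted p = 0.0303) joined the 3 above. Their changes stayed at 0.82 and 0.60, and their SEs fell to 0.17 and 0.20. Hspa1a was then called between genotypes after crystals, at -1.84 (limma adjusted p = 0.0312), beside Hsph1 at -0.55 (adjusted p = 0.0142), where 0.59% of genes were called higher and 0.777% lower. The shared term is the same in every group, so it leaves the split of the Hspa1a crystal effect within wt in place. In the fit split by wt slide set, the Hspa1a difference was -3.06 against wt replicates 1 to 3 and -0.10 against wt replicates 4 and 5. The crystal effect in dko still had none of 9 called, where 1.16% of genes were called higher and 0.763% lower. For crystals with CD against untreated in dko, Hspd1 (limma adjusted p = 0.00992) and Dnajb1 (adjusted p = 0.00332) stayed called. In that comparison 6.94% of genes were called higher and 8.69% lower. In wt, Dnajb1 (-0.34, limma adjusted p = 0.0072) joined Hspa1a, Hspd1, Hsph1 and Hspa8, where 10.6% of genes were called higher and 13.6% lower.

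Beyond the members, 61 further genes of the chaperone system, in 9 lists by role, were counted, of which 54 were measured. With crystals alone in wt, 9 of the 54 rose (16.7%) and 2 fell, where 6.89% of all genes were called higher and 7.11% lower, and the median change was 0.16 against -0.01 over all genes. The counts by role that follow stand against the same shares. Of 7 mitochondrial chaperone genes, 3 rose and 0 fell, with a median of 0.48. These were Dnaja3, a mitochondrial J protein, by 0.74 (limma adjusted p = 9.53e-06), and the protease genes Lonp1, by 0.50 (adjusted p = 0.0385), and Clpp, by 0.50 (adjusted p = 0.00152). Among 5 measured Hsp70 and Hsp110 genes, 3 rose and 1 fell. Hspa9, the mitochondrial Hsp70, rose by 0.92 (limma adjusted p = 3.39e-05), and Hspa4, an Hsp110 protein, by 0.71 (adjusted p = 0.0232). Hspa1l, an Hsp70 gene beside Hspa1a, was detected on 5 of 5 loaded and 0 of 5 untreated wt arrays and was at least 1.6-fold higher with crystals (limma adjusted p = 3.37e-06). Hspa2, the Hsp70 abundant in testis, fell by 0.59 (adjusted p = 0.00231).

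The Hsp90 list had 1 riser among 11, Ahsa1, the activator of the Hsp90 ATPase, at 0.84 (limma adjusted p = 7.67e-05). Of 7 measured cytosolic J proteins 1 rose, Dnajb6 at 0.47 (adjusted p = 0.037), and of 8 subunits of TRiC, the cytosolic chaperonin, 1 rose, Cct3 at 0.32 (adjusted p = 0.0353). Of 8 BAG and related partners of Hsp70 0 rose and 1 fell, Bag4 by 0.31 (adjusted p = 0.0258). None was called among 3 measured small heat shock proteins, among 4 heat shock factors and their regulators, for the collagen chaperone Serpinh1, or among 6 chaperones of the endoplasmic reticulum counted apart.

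In dko, crystals alone called none of the 54. Hspa9 came nearest of those named, at 0.67 (limma adjusted p = 0.0531), and Ahsa1 was at 0.56 (adjusted p = 0.119). After crystals and CD in dko, 4 rose (7.41%) and 1 fell, where 4.07% of all genes were called higher and 4.02% lower. Hspa9 rose by 0.70 (limma adjusted p = 0.00571), Dnajb6 by 0.69 (adjusted p = 0.0106), Cct3 by 0.42 (adjusted p = 0.0212) and Dnaja3 by 0.41 (adjusted p = 0.0307), and Hspa2 fell by 0.51 (adjusted p = 0.0289). After the same treatment in wt, 9 rose (16.7%) and 3 fell, where 7.49% of all genes were called higher and 8.73% lower. Hspa1l, at least 1.53-fold higher, Hspa9 (0.81), Dnaja3 (0.69) and Dnajb6 (0.66) were among the genes that rose, and Hspa2 (-0.79), Ahsa2 (-0.56) and Bag4 (-0.47) were those that fell. Between genotypes after crystals, 1 of the 54 was called, where 0.146% of all genes were called higher and 0.229% lower. This was Hspa1l, lower in dko (limma adjusted p = 0.0302). It was detected on 1 of 4 dko and 5 of 5 wt arrays, with overlapping levels of 4.55 to 4.90 in dko and 4.80 to 5.85 in wt, so no size is given. The 4 CD comparisons called none of the 54.

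**Figure D5:**
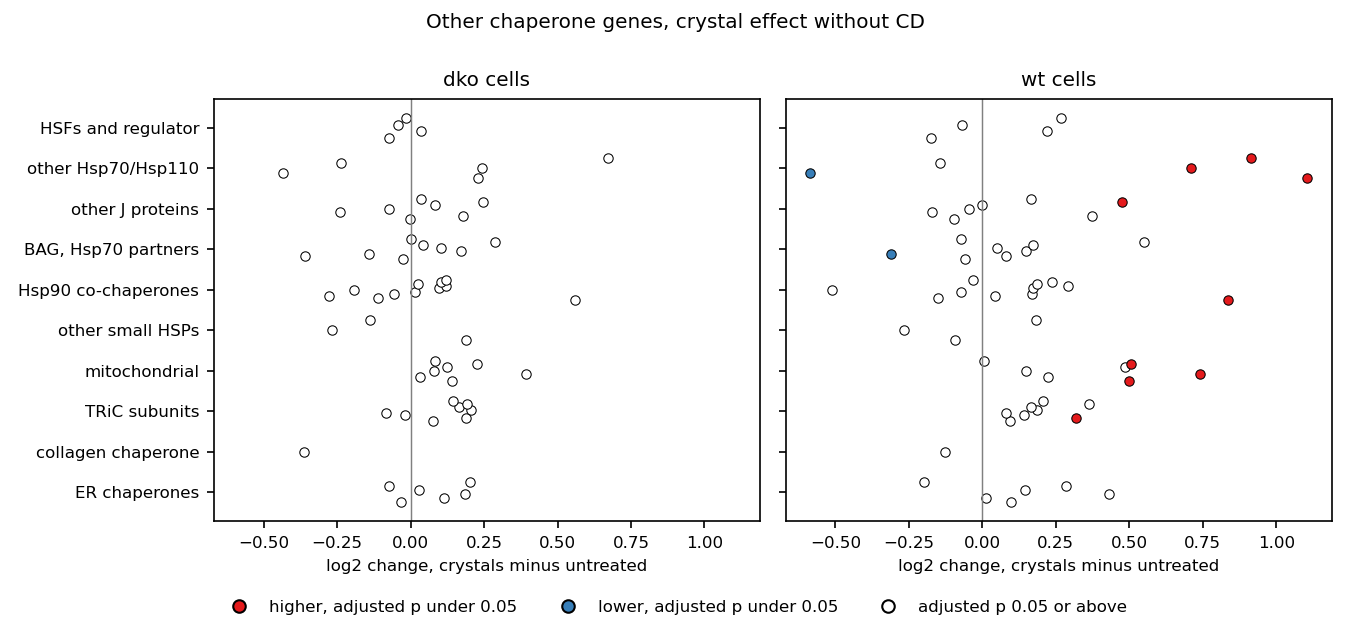
Log2 change with crystals alone for each measured gene of the other chaperone lists, with dko left of wt and coloured points where limma's adjusted p was under 0.05. In wt 9 genes are higher and 2 lower, and in dko none is called.

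Across the 36 arrays, which share slides and normalization, the members did not vary as 1 block. Pearson's r was 0.61 between Hspd1 and Hspe1 (0.48 on deviations within groups), 0.76 between Hspa1a and Hspd1 (0.43 within groups) and 0.73 between Hsph1 and Hsp90aa1 (0.47 within groups). Dnajb1 followed Hspa1a little, at -0.08 (0.14 within groups), and Hsp90aa1 ran against Hspb1 at -0.70 (-0.53 within groups). The genes outside the lists whose levels most resembled the mean standardised level of Hspa1a, Hsph1 and Dnajb1 were Kctd6 (r = 0.860), Tigd2 (0.855), Lin54 (0.848), Kat6b (0.822) and Ptp4a1 (0.819). For the mean of Hspd1 and Hspe1 they were Slc25a32 (0.882), Trmt10c (0.881), LOC100047184 (0.870), Esd (0.870) and Cog3 (0.860). These are descriptions over the 36 arrays.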

How the data were processed

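Per the labels, RNA was isolated with TRIzol and labelled with biotin. The intensity of every probe on every array was deposited by the authors, not normalized as far as the values show (array medians 83.5 to 128, no value below 69.4). Beside each intensity stood the detection p-value that the authors deposited. The deposited series matrix held log2 of the same intensity (largest difference 5.57e-05). Partek is named in the submitters' processing notes, without role or version.

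Of 45281 probes (1 nameless line was left out), 27744 matched a RefSeq symbol, 7998 a synonym, and 9539 kept the file's name. In 26 cases a match was refused. Limma 3.58.1 (R 4.3.3) was used: neqc with an offset of 16 and quantile normalization, a filter of detection p under 0.05 on at least 4 arrays (21126 probes, 14415 genes, the brightest probe per gene), 1 fit of 8 group means (28 residual and 3.94 prior degrees of freedom), 17 comparisons, two-sided tests and Benjamini-Hochberg adjustment over all genes. Arrays detected 15342 to 17892 probes each, and the number of arrays limits the precision. Replicate arrays correlated at 0.964 to 0.995. Tested on simulated data for the wt crystal comparison over 14415 genes, the fit recovered 17.7%, 81.8% and 97.2% of genes changed by 0.5, 1 and 2 on the log2 scale, with 6 false calls. The simulated noise was independent between arrays and genes, with the same spread in every group and no slide or Xist differences. These rates therefore need not hold for the real arrays.

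The members, the lists and the rule for naming genes (every member, called list genes up to 4 per list and comparison, and the 5 genes most like each profile) were chosen with earlier results of these data known. The split by slide set and the Xist term were chosen after seeing the data. Alternatives covered normalization, filter, probe choice, blocks for replicate number and slide, and leaving out replicates. Same-numbered arrays deviated together in every pair only for CD in loaded wt cells (r 0.477 to 0.699 in 5 of 5 pairs). There the replicate block called 0 members, as did the fit without it.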

Additional observations from a re-analysis of the deposited data

Results flagged for a closer look

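Of 72 member groups tested for an array far from the others, 5 held one, where chance flags about 1 in 20 groups (3.6 of 72). In untreated dko cells, Hsph1 read 8.96 on replicate 6 and 9.28 to 9.34 on the others. With crystals in dko, Hsph1 read 9.17 on replicate 8 and 9.40 to 9.44 on the others. With crystals and CD in dko, it read 9.24 on replicate 6 and 8.95 to 8.98 on the others. Hsp90aa1 read 7.52 on replicate 3 of wt cells with CD and 8.05 to 8.23 on the others. Hspb1 read 5.51 on replicate 5 of wt cells with crystals and CD and 4.84 to 5.02 on the others.

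The Hspa1a response to crystals in wt differed by 2.91 between replicates 1 to 3 and replicates 4 and 5 by an interaction test (limma adjusted p = 0.00709). Slide set, replicate number and the Xist signal coincide there and cannot be told apart.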

How the results depend on the processing

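The counts of called members depended on the scaling. For crystals in wt, 3 members were called, against 1 (Hspa1a) with median scaling, 1 (Hspa1a) on the deposited log2 values, 0 on replicates 4 to 9 and 5 with the Xist term, and 3 to 4 when 1 replicate was left out. Hspd1 kept a value of 1.09 (limma adjusted p = 0.0612) with median scaling and 1.04 (adjusted p = 0.216) on the deposited values, and Hsph1 kept 0.67 (0.174) and 0.60 (0.571). For crystals with CD in dko the count of 2 became 0 with median scaling, 0 on the deposited values, 0 without the filter and 1 with the mean of a gene's probes, and 0 to 2 with a replicate left out. The count of 4 for crystals with CD in wt became 1 with median scaling, 0 on the deposited values, 2 without the filter and 1 on replicates 4 to 9, and 2 to 4 with a replicate left out. For the genotype difference after crystals the count of 1 became 0 with median scaling, the deposited values, slide as a fixed block and replicates 4 to 9, and 2 with the Xist term, and 0 to 2 with a replicate left out (0 without replicate 2, 3, 7, 8 or 9). After crystals and CD it became 0 under those 4 settings and stayed at 1 with any replicate left out. The other 12 comparisons called 0 members in each of these settings, and no called value reversed. In the fit split by wt slide set, Hspa1a was called for CD in loaded wt cells on replicates 1 to 3 (-1.77, limma adjusted p = 0.026), whereas a fit with those wt replicates alone called 0 members there. Over all genes, crystals in wt called 993 higher and 1025 lower (49.2% higher), against 317 and 181 (63.7%) with median scaling and 95 and 34 (73.6%) on the deposited values. These scalings also moved the median genotype difference of all genes, to -0.13 and -0.22 after crystals and -0.17 and -0.29 after crystals with CD, so the Hsph1 differences there, -0.82 and -0.84, and -0.91 and -0.95, stand against those shifts. With the replicate number as a block, 4 members were called for crystals in wt (Hspe1 added, limma adjusted p = 0.0127) and 5 for crystals with CD in wt (Dnajb1 added, adjusted p = 0.0288), and 2 for crystals with CD in dko. Apart from CD in loaded wt cells, the numbers paired the arrays by their deviations only in part. In wt, the same number was the best match in 4 of 5 pairs for crystals with CD against untreated. It was so in 3 of 5 pairs each for crystals and for CD in unloaded wt cells, and in 0 to 2 of 4 pairs in dko. Causes of the changes between settings were not tested.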
